A study of Mus musculus with 34 samples.

Results

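The trophoblast regulators are 10 genes, Cdx2, Elf5, Gata2, Gata3, Hand1, Tfap2a, Tfap2c, Tead4, Esx1 and Plac1, taken by gene symbol and each found as 1 row among the 23366 gene rows of the table. RNA-seq was done on mouse embryonic stem cells of the J1 line (J1 mESCs), kept on gelatin in serum medium, with 2 libraries from cells cultured without leukemia inhibitory factor (serum/-LIF) and 2 from cells cultured without it but with 0.5 mg/ml purified Royalactin, the major protein of royal jelly (serum/-LIF + Royalactin). Both groups are the same unmodified line in the same serum medium, and the sample labels give passage 40 for all 4 libraries, where a legend in the study's text names a lower passage number. Serum/+LIF RNA and trophoblast cells were not analysed here, so every comparison is between the 2 groups without LIF. Each value is a normalized count, the reads of a gene divided by a size factor of its library.

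The trophoblast is the outer lineage of the blastocyst and later forms most of the placenta. In its precursors the DNA-binding factor Tead4, with its coactivators Yap1 and Wwtr1, and Gata3 turn on Cdx2, and Cdx2, Elf5, Eomes, Tfap2c and their partners then sustain trophoblast stem cells, while Hand1 acts in giant cell formation and Esx1 and Plac1 in the later placenta. Embryonic stem cells come from the inner cell mass and normally hold this program off through Oct4, the product of Pou5f1, and, for Elf5, through DNA methylation of its promoter. Several members have other uses, Gata2 and Gata3 in blood, Hand1 in mesoderm, Tfap2a in ectoderm and neural crest, and Tfap2c in naive pluripotent cells and germ cell precursors.

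The libraries held 14737796 to 17597818 reads on genes. The 45S ribosomal RNA precursor Rn45s took 9.08% to 46.6% of them, with the higher share in replicate 1 of both groups, which left 7878527 to 15999458 other reads. The 7 embryonic stem cell markers checked (Pou5f1, Sox2, Nanog, Zfp42, Utf1, Dppa4 and Fgf4) had reads in every library, and their summed normalized count was 9729 to 10400 in serum/-LIF and 17026 to 19527 with Royalactin. Of them Zfp42 and Sox2 were called, both higher with Royalactin, and Pou5f1 had the highest mean. A count of 0 allows a level of up to 3 reads, which is 2.07 to 4.01 normalized counts depending on the library. This limit, called the floor here, takes in counting error alone, since PCR copies are not independent molecules.

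Tfap2c was the one member with more than 40 reads in any library. Of the 10 members, Tfap2c and Tead4 passed the filter for testing, a mean of at least 10 normalized counts over the 4 libraries. The other 8 members were below it, and Elf5 had 0 reads in all 4 libraries. Neither tested member was called at an adjusted p under 0.05, against 0.493% of all 12993 tested genes (64 genes). Of all tested genes, 0.331% (43) were called higher with Royalactin and 0.162% (21) lower. The calls named here come from the fit on all 4 libraries and were not kept in fits with 1 library left out. Such fits leave 1 residual degree of freedom, so they cannot show which library a given call needs. Unadjusted limma p-values were under 0.05 for Tfap2c and for 1214 genes in all.

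**Figure D1:**
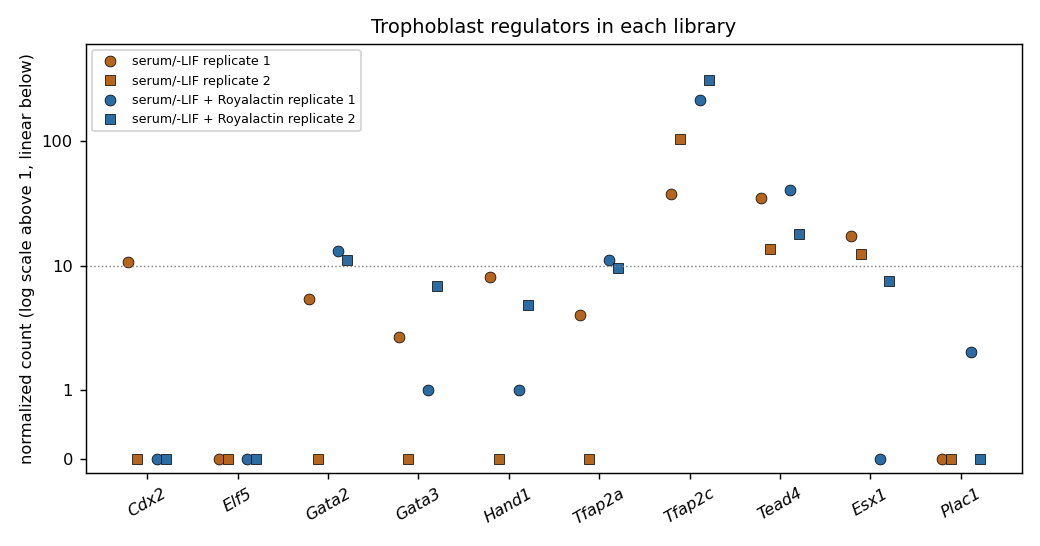
Normalized counts (vertical axis, logarithmic above 1 and linear below) of the 10 members in each of the 4 libraries, with colours for the groups, symbols for the replicates and a dotted line at the filter of 10. The Royalactin values of Tfap2c, 214 and 310, lie above its serum/-LIF values of 37.4 and 104, and 7 members lie at 0 in serum/-LIF replicate 2.

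Tfap2c encodes AP-2gamma, an AP-2 family factor of the trophectoderm that naive pluripotent cells also make. The gene lies on chromosome 2 (172375093 to 172384122 of mm9, plus strand, 9 exon blocks). It had 37.4 and 104 normalized counts in serum/-LIF replicates 1 and 2, from 28 and 100 reads, and 214 and 310 in serum/-LIF + Royalactin, from 213 and 451 reads. The groups did not overlap, and the Royalactin libraries were the higher ones. The means were 70.5 ± 46.7 and 262 ± 68.0 normalized counts (SD, n = 2), a ratio of 3.72. On the log2(normalized count + 1) scale, which understates changes of weak genes, the difference was 2.03 (standard error 0.57, 95% interval 0.80 to 3.26).

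This difference did not pass the threshold over all genes (limma, unadjusted p = 0.00342, Benjamini-Hochberg adjusted p = 0.195). Ranked by adjusted p, Tfap2c was number 226 of the 12993 tested genes. A separation of both groups in this direction was seen for 19.7% of tested genes, and with 2 against 2 libraries an exact two-sided permutation test cannot give a p below 0.333. Among the serum/-LIF libraries the value of replicate 2 exceeded that of replicate 1, and the same order held with Royalactin, while the Rn45s share had the opposite order. Between libraries of the same number, the Royalactin value was 5.72 times the serum/-LIF value for number 1 and 2.999 times for number 2. The part of Rn45s share in the spread was not tested. Of 124 overlapping exon windows of 75 bases, 14 (11.3%) also matched a second place on chromosome 4 with up to 2 mismatches, all in the last part of the gene, so some reads of Tfap2c cannot be placed with certainty.

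Tead4, the TEAD-family factor needed for Cdx2 activation in the embryo, lies on chromosome 6 (128174306 to 128250841 of mm9, minus strand). Its normalized counts were 34.8 and 13.5 in serum/-LIF and 40.2 and 17.9 in serum/-LIF + Royalactin, from 13 to 40 reads. The groups overlapped, and replicate 1 exceeded replicate 2 in both, which is the order of the Rn45s share. The log2 difference was 0.30 (95% interval -1.93 to 2.52, limma adjusted p = 0.955, Benjamini-Hochberg), and a change of 3-fold in either direction lies inside that interval.

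**Figure D2:**
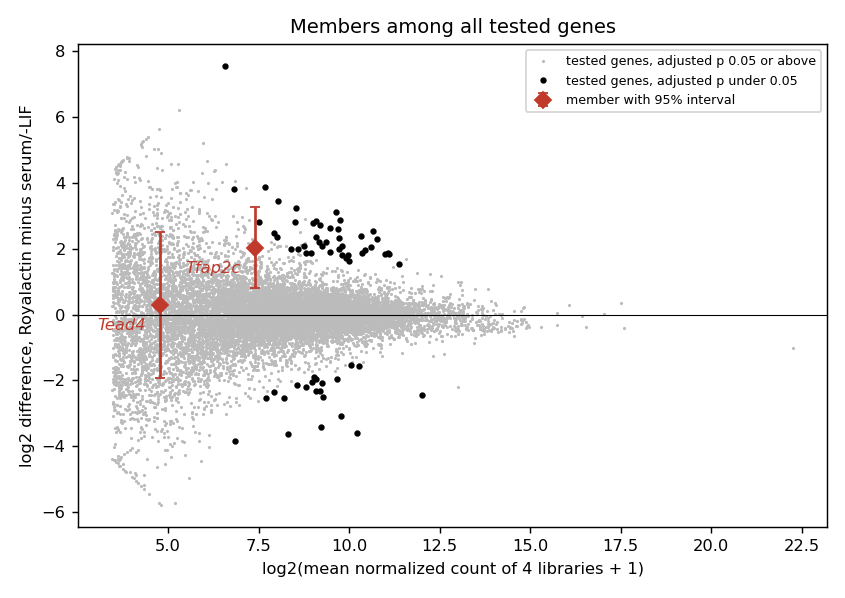
Log2 difference (Royalactin minus serum/-LIF) against log2 mean normalized count for the 12993 tested genes, with the 64 called genes in black and the tested members Tfap2c and Tead4 as diamonds with 95% intervals. Tfap2c, at 2.03, is not one of the called genes, and Tead4, at 0.30, lies within the cloud of uncalled genes.

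The remaining members are given mainly as reads. The homeobox factor Cdx2 (chromosome 5, 148112381 to 148118846 of mm9, minus strand) had 8 reads in serum/-LIF replicate 1. The other 3 libraries had 0 reads each. Its serum/-LIF mean of 5.35 ± 7.57 normalized counts (SD, n = 2) rests on replicate 1, without which no read of Cdx2 remains. Serum/-LIF replicate 2 was at 0 like both Royalactin libraries, so the groups overlapped and no fold is given. With all genes above 0 in the fit, the limma adjusted p of Cdx2 was 0.813 (unadjusted p = 0.263, Benjamini-Hochberg). Elf5 (chromosome 2, 103251845 to 103291146, plus strand), an ETS factor that locks in trophoblast stem cell identity, had 0 reads in all 4, although its 5877 exon bases are the longest of the members. Plac1 (chromosome X, 50423172 to 50593288, minus strand), a secreted placental protein, had 2 reads in serum/-LIF + Royalactin replicate 1 and 0 elsewhere. For Elf5 and Plac1 all libraries were under the floor of 3 reads, so a difference between the groups was not detectable at this depth.

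The GATA factors Gata2 (chromosome 6, 88143885 to 88157024 of mm9, plus strand) and Gata3 (chromosome 2, 9778705 to 9811661, minus strand) are zinc finger regulators of trophoblast and blood. Gata2 had 4 and 0 reads in serum/-LIF and 13 and 16 with Royalactin, or 5.35, 0, 13.1 and 11.0 normalized counts, with means of 2.67 ± 3.78 and 12.0 ± 1.46 (SD, n = 2). Gata3 had 2 and 0 reads in serum/-LIF and 1 and 10 with Royalactin. The Gata2 groups did not overlap and the Gata3 groups did. Exons of Gata3 share 155 bases with Gm13256 on the opposite strand and 77 bases with 9230102O04Rik on the same strand. The strand setting of the counting is not given in the sources used here, so reads of such overlaps cannot be assigned with certainty.

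Tfap2a, the AP-2 factor of trophoblast, surface ectoderm and neural crest (chromosome 13, 40811044 to 40829192 of mm9, minus strand), resembled Gata2, with 3 and 0 reads in serum/-LIF and 11 and 14 with Royalactin, or 4.01, 0, 11.1 and 9.64 normalized counts, with means of 2.01 ± 2.84 and 10.4 ± 1.01 (SD, n = 2). Its exons share 111 bases with Gm16989 on the opposite strand. Hand1 (chromosome 11, 57642207 to 57646320, minus strand), a bHLH factor of giant cells and mesoderm, had 6 and 0 reads in serum/-LIF and 1 and 7 with Royalactin. Esx1 (chromosome X, 133649936 to 133656622, minus strand), a homeobox gene of the labyrinth and the male germ line, went the other way, with 13 and 12 reads in serum/-LIF and 0 and 11 with Royalactin, or 17.4, 12.4, 0 and 7.57 normalized counts, with means of 14.9 ± 3.51 and 3.79 ± 5.35 (SD, n = 2).

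Of the 8 members under the filter, the groups did not overlap for Gata2 and Tfap2a, higher with Royalactin, and for Esx1, lower with Royalactin. Among all 3693 genes with a mean above 0 and under 10 normalized counts, 12.0% were separated with Royalactin higher and 7.37% with Royalactin lower. With all genes above 0 in the fit, no member passed, and the unadjusted limma p-values of Gata2, Tfap2a and Esx1 were 0.129, 0.127 and 0.129 (Benjamini-Hochberg adjusted p = 0.759, 0.757 and 0.760).

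The serum/-LIF replicates were far apart for the weak members. Serum/-LIF replicate 2 had 0 reads for 7 of the 8 members under the filter, all but Esx1, whereas replicate 1 had 0 reads for Elf5 and Plac1 and 36 reads over the 8. The Royalactin replicates had 28 and 58 reads over the 8, with 3 members at 0 in each. Replicate 2 was the deeper serum/-LIF library when Rn45s is left out, with 11559820 reads against 7878527. In the whole table, 1206 genes had at least 3 reads in serum/-LIF replicate 1 and 0 in replicate 2, and 594 the reverse. Between the Royalactin replicates the imbalance was as large and had the opposite order, 467 genes against 1205 the reverse. There replicate 2 was also the deeper library without Rn45s, with 15999458 reads against 10538334. Such genes at 0 were thus more numerous in the deeper serum/-LIF library but in the shallower Royalactin library. The serum/-LIF replicates had 2122 and 1309 genes with 1 to 10 reads. The serum/-LIF level of Cdx2, Gata2, Gata3, Hand1 and Tfap2a therefore rests on replicate 1, and without it no serum/-LIF read of these 5 genes remains.

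Levels between genes were compared per kilobase of exon. In serum/-LIF the mean was highest for Tfap2c at 19.2 normalized counts per kilobase, from 10.2 to 28.1 in the replicates, followed by Esx1 at 7.51 and Tead4 at 6.71, whose replicate ranges overlapped. Cdx2 at 2.37 and Hand1 at 2.01 came next, and Gata2, Tfap2a and Gata3 were at 0.798, 0.619 and 0.336. From Cdx2 on, each value rests on at most 8 reads in replicate 1 and 0 in replicate 2, so the order of these genes is not resolved. With Royalactin, Tfap2c was at 71.3 per kilobase (58.2 and 84.4), and Tead4, the next, was at 8.08 (11.2 and 4.98). Gata2 at 3.59 and Tfap2a at 3.19 followed with overlapping ranges, then Esx1 at 1.91, Hand1 at 1.46, Gata3 at 0.992 and Plac1 at 0.721. From Esx1 on, no gene had more than 11 reads in a Royalactin library, so their order is not resolved either. In all 4 libraries the value of Tfap2c per kilobase was the highest of the 10 members, though in serum/-LIF replicate 1 by little, at 10.2 against 9.67 for Tead4.

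The members also differ in the sequence before their transcription starts. RefSeq promoter sequence (GRCm38.p6) was matched for 7 members, with 11 starts, and no entry was matched for Hand1, Tead4 and Tfap2c. In the 250 bases before each start, CpG dinucleotides numbered from 2 to 24, against a median of 6 over 32851 RefSeq starts. The lowest number was at one start each of Elf5 and Plac1, the highest at Esx1 and the second start of Gata2. Some stretches reach into annotated exons of their own gene. Among them are all 250 bases of that Elf5 stretch and 125 bases at the second start of Plac1. Of these stretches 4 are shown, for the members with the fewest reads (Elf5, Plac1, Cdx2) beside the CpG-rich Gata2, in lower case 5′ to 3′ on the strand of the gene, with each CpG in capitals. Their positions are those of an exact match in mm9.
Elf5 (chr2:103263975-103264224, plus strand): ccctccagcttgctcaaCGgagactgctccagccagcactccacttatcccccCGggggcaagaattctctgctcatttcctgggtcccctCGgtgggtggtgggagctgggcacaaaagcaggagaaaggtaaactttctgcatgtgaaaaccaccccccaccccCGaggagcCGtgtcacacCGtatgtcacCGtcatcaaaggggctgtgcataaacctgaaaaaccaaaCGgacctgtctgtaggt
Plac1 (chrX:50593288-50593537, minus strand): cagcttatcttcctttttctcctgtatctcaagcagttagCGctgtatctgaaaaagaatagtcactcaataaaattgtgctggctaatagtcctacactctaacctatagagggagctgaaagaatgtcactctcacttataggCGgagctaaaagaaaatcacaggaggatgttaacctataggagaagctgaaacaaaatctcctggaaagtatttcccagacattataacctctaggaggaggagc
Cdx2 (chr5:148118826-148119075, minus strand): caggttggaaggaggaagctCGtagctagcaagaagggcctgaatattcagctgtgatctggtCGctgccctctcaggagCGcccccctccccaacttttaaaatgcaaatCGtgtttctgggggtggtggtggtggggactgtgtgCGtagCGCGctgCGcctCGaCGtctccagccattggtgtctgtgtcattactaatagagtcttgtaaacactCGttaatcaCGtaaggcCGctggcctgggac
Gata2 (chr6:88143635-88143884, plus strand): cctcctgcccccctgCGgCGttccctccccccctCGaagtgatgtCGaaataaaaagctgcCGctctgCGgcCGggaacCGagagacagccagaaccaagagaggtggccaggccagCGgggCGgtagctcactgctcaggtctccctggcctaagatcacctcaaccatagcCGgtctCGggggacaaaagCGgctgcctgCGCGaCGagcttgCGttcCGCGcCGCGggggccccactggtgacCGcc
The Plac1 stretch holds 2 CpGs, a number not exceeded by 29.0% of all starts. The Elf5 stretch shown holds 8, which 43.0% of starts reach, and Cdx2 13, which 31.5% reach, both above the median of 6. Gata2 holds 22, which 14.8% of starts reach. DNA methylation was not measured in these RNA libraries. The short motif AGATAA, read by GATA factors, was in 1 of the 11 stretches, that of Plac1 shown, against 9.99% of all starts. The TEAD motif GGAATG was in 2, at the other start of Elf5, inside annotated exon, and the second start of Gata2, against 12.6%. The AP-2 motif GCCNNNGGC was in 3, of Gata3, Cdx2 and the second start of Gata2, against 13.7%. Both strands were searched, none of the motifs contains another, and a match only describes the letters.

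Other genes of the trophoblast program gave the setting of the members. They were taken from lists of genes with known roles, chosen with earlier results of these data known. The median log2 difference of each list is set beside that of all tested genes, -0.01. Such medians, and the shares of separated genes, therefore describe the lists and give no independent support. In bulk RNA, fewer cells of a type and less RNA per cell cannot be told apart.

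Of 12 other trophoblast stem cell genes, all passed the filter, 1 was called higher with Royalactin and none lower, with a median log2 difference of -0.02. The called gene was Esrrb, an orphan nuclear receptor used by trophoblast stem cells and naive pluripotent cells alike, with 233 and 181 normalized counts in serum/-LIF and 1641 and 1390 with Royalactin (log2 difference 2.87, limma adjusted p = 0.00273, Benjamini-Hochberg). Besides the fits with a library left out, it was lost without the variance trend (limma adjusted p = 0.171, Benjamini-Hochberg). Sox21, an HMG-box factor, had the largest positive difference, 2.95, with 1.34 and 17.6 against 43.3 and 57.8 normalized counts, and Satb1, a chromatin organizer, the largest negative one, -1.33. Neither passed (limma adjusted p = 0.492 and 0.461, Benjamini-Hochberg).

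Genes of the differentiated placenta ranged from no reads in any library to well above the filter. Of 20 listed, 1 (Rhox5) was not analysed here, 8 had 0 reads in all 4 libraries (the hormone genes Prl3d1, Prl3b1 and Prl2c2, the proteases Ctsq and Cts7, Tpbpa of the spongiotrophoblast, the fusogen Synb and the receptor Pparg), and 7 were tested, of which none was called. The tested gene with the highest mean normalized count was Peg10, an imprinted gene derived from a retrotransposon, at 2002 and 1593 normalized counts in serum/-LIF and 1862 and 793 with Royalactin. The largest differences were 0.93 for Ascl2, a spongiotrophoblast factor, and -1.30 for the kinase gene Nrk (limma adjusted p = 0.840 and 0.586, Benjamini-Hochberg).

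Of the epithelial genes that the trophectoderm shares with other simple epithelia, the keratin genes Krt8 and Krt18 passed the test, narrowly, with lower values in Royalactin. All 13 were tested, 2 were called lower and none higher, and the median log2 difference was -0.63. The proteins of these keratin genes pair to build the intermediate filaments of simple epithelia. Krt8 had 883 and 897 normalized counts in serum/-LIF and 104 and 297 with Royalactin (log2 difference -2.34, limma adjusted p = 0.0400, Benjamini-Hochberg). Krt18 had 732 and 731 against 111 and 227 (log2 difference -2.20, limma adjusted p = 0.0336, Benjamini-Hochberg). Both calls lie close to the threshold and both were lost in 9 of 12 alternatives, other scalings among them. With upper-quartile scaling the limma adjusted p-values were 0.0721 and 0.0546 (Benjamini-Hochberg), and over the alternatives they ranged from 7.21e-08 to 1.00 for Krt8 and from 2.73e-06 to 1.00 for Krt18, with lower values in Royalactin throughout.

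Within the same list Krt19 had 169 and 70.4 normalized counts in serum/-LIF and 1.01 and 37.2 with Royalactin, a log2 difference of -3.65 that did not pass (limma adjusted p = 0.320, Benjamini-Hochberg). Aqp3, a water and glycerol channel, differed in the other direction, from 6.69 and 3.11 to 77.4 and 155 normalized counts (log2 difference 4.30, limma adjusted p = 0.107, Benjamini-Hochberg). Cdh1, the gene for E-cadherin with the highest mean of the list, had 5316 and 3395 normalized counts in serum/-LIF and 3255 and 2325 with Royalactin (log2 difference -0.63, limma adjusted p = 0.604, Benjamini-Hochberg). For 9 of the 13 genes the groups were separated with Royalactin lower, a separation found for 18.9% of all tested genes.

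**Figure D3:**
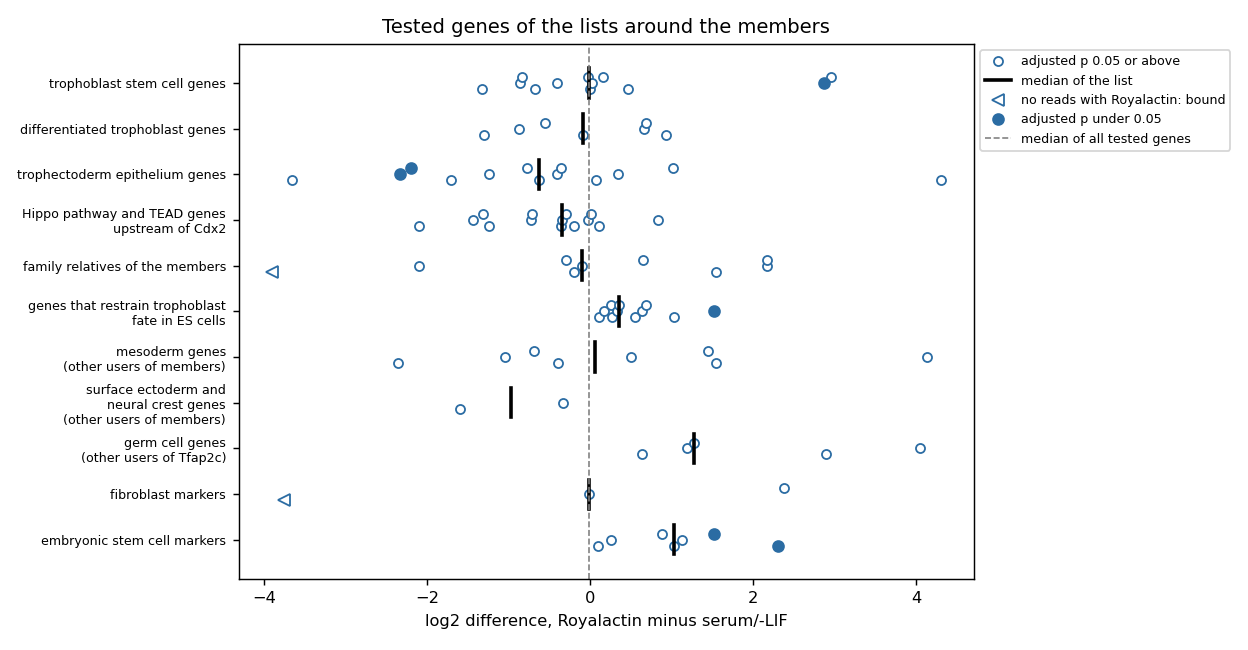
Log2 difference (Royalactin minus serum/-LIF, horizontal axis) of each tested gene in the 11 lists around the members, filled where the adjusted p was under 0.05, with a bar at each list's median, a dashed line at the median of all tested genes and triangles at a bound for 2 genes without reads with Royalactin. Trophectoderm epithelium genes have a median of -0.63 with Krt8 and Krt18 filled on the lower side, and germ cell genes a median of 1.27 with none filled.

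The Hippo pathway governs Yap1 and Wwtr1, the coactivators of the TEAD factors, upstream of Cdx2. Of 15 such genes 14 were tested and none was called, with a median log2 difference of -0.35. For 8 of the 14 the groups were separated with Royalactin lower, against 18.9% of all tested genes, and for 1 with Royalactin higher. Yap1, with the highest mean, had 1716 and 1251 normalized counts in serum/-LIF and 1711 and 1279 with Royalactin, a log2 difference of 0.01. The largest differences were -2.10 for Tead3, with 100.3 and 102 against 19.1 and 27.5 normalized counts, and 0.83 for Nf2, the gene of the upstream activator Merlin (limma adjusted p = 0.341 and 0.446, Benjamini-Hochberg).

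Of 19 relatives of the members from the same gene families, 9 were tested and none was called, the 3 other TEAD genes among them. The largest positive difference was 2.17 for Elf3, an epithelial ETS factor related to Elf5, with 74.9 and 13.5 normalized counts in serum/-LIF and 197 and 111 with Royalactin (limma adjusted p = 0.378, Benjamini-Hochberg). Cdx4, a posterior homeobox gene of the Cdx2 family, had 18 and 50 reads in serum/-LIF and 0 in both Royalactin libraries, at least 14.9-fold lower on the group means against the floor of 3 reads per library (limma adjusted p = 0.413, Benjamini-Hochberg). Tead2 had the highest mean of the relatives, with 1380 and 1067 against 1020 and 961 normalized counts (log2 difference -0.29, limma adjusted p = 0.820, Benjamini-Hochberg). The median of the tested relatives was -0.10, also with Cdx4 set at its bound.

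Genes known to restrain trophoblast fate in embryonic stem cells had positive log2 differences in 11 of 11 cases, with a median of 0.35. Of all 12993 tested genes, 6414 had positive ones. For 6 of the 11 the groups were separated with Royalactin higher, against 19.7% of all tested genes. Pou5f1, Sox2 and Nanog of this list are also among the embryonic stem cell markers. Of the 11 genes 1 was called, higher with Royalactin. That was Sox2, with a log2 difference of 1.52 (limma adjusted p = 0.0368, Benjamini-Hochberg). This call was lost in 7 of 12 alternatives, among them a pseudocount of 0.1 and the fit with all genes above 0, and its limma adjusted p ranged from 7.81e-06 to 1.00 over them (Benjamini-Hochberg). Pou5f1, with the highest mean of the list, had 4996 and 5407 normalized counts in serum/-LIF and 5140 and 7453 with Royalactin, with overlapping groups (log2 difference 0.25, limma adjusted p = 0.854, Benjamini-Hochberg).

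Germ cell genes were listed because Tfap2c acts in germ cell precursors together with Prdm1 and Prdm14. Of 6 listed, 5 were tested and none was called, with a median log2 difference of 1.27 and positive log2 differences in 5 of 5. Of all 12993 tested genes, 6414 had positive ones. For 4 of the 5 the groups were separated with Royalactin higher, against 19.7% of all tested genes. Prdm14, a regulator of both germ cell fate and naive pluripotency, had 13.4 and 1.04 normalized counts in serum/-LIF and 63.4 and 123 with Royalactin, a log2 difference of 4.04 (limma adjusted p = 0.220, Benjamini-Hochberg). Dppa3, with the highest mean of the list, had 207 and 521 against 477 and 548 normalized counts, with overlapping groups.

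No tested gene of the mesoderm, surface ectoderm and neural crest, or fibroblast lists was called. Of 12 mesoderm genes 8 were tested and none called, the summed normalized count was 225 and 238 in serum/-LIF and 233 and 185 with Royalactin, and the largest differences were 4.13 for Kdr and -2.36 for Msx1 (limma adjusted p = 0.547 and 0.389, Benjamini-Hochberg). Of 10 surface ectoderm and neural crest genes 2 were tested, Foxd3 and Twist1, neither called, and 4 had 0 reads in all libraries (Krt5, Krt14, Trp63 and Snai2). Of 10 fibroblast markers 3 were tested and none called, with summed normalized counts of 164 and 94.2 in serum/-LIF and 97.6 and 69.5 with Royalactin. Pdgfrb, Postn and Fap were at 0 in all libraries, and Dcn had 28 and 30 reads in serum/-LIF and 0 in both Royalactin libraries, at least 13.5-fold lower against the floor (limma adjusted p = 0.422, Benjamini-Hochberg). Pdgfra had the largest positive difference, 2.38, with 52.2 and 0 against 42.2 and 32.4 normalized counts, and Thy1, with the highest mean, had 41.5 and 33.1 against 45.3 and 29.6 (limma adjusted p = 0.709 and 0.998, Benjamini-Hochberg). The part of such cells in the values of the members was not tested.

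**Figure D4:**
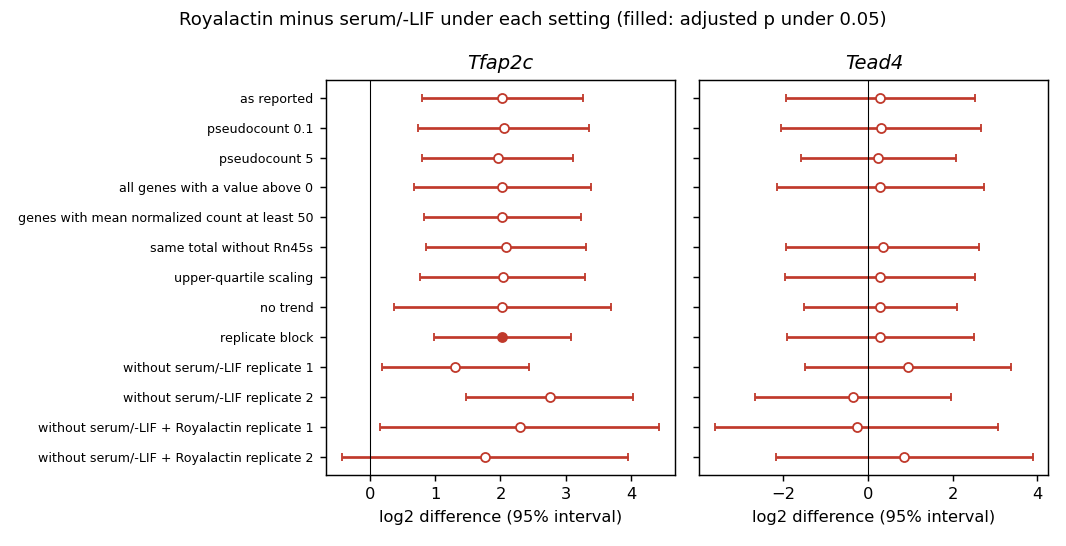
Log2 difference (Royalactin minus serum/-LIF) of Tfap2c and Tead4 with 95% intervals under each setting of the analysis, filled where the adjusted p was under 0.05. The difference of Tfap2c lay between 1.31 and 2.75 in all settings and passed with the replicate number as a block alone, and that of Tead4 lay between -0.36 and 0.95.

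The size of the Tfap2c difference depended on which library was kept. It was 1.31 without serum/-LIF replicate 1 and 2.75 without serum/-LIF replicate 2, and 2.30 and 1.76 without Royalactin replicates 1 and 2. Its direction was the same in all of these, while that of Tead4 changed with the library left out, being -0.36 without serum/-LIF replicate 2 and -0.27 without Royalactin replicate 1, and 0.95 and 0.86 without the other replicate of each group.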

How the data were processed

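RNA was depleted of ribosomal RNA and sequenced as single reads. Alignment by the authors was to mm9 (Tophat, at most 2 mismatches), gene counts came from HTSeq-count, and each library was scaled by a DESeq size factor, and the deposited table holds these normalized counts, a signal proportional to reads, for 23366 gene rows. The annotation and strand setting of the counting are not given in the sources used here. Values of a library are multiples of the value of a single read (100% of them, tolerance 0.01 of a read), and reads are values divided by it. This was taken as too uncertain for serum/-LIF + Royalactin replicate 1, where that value is close to 1, to run a test on counts. Of the symbols, 27 have turned into dates. ATAC-seq samples were not analysed here.

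Samples were grouped by their labels, and the series text describes replicates as biological. Log2(normalized count + 1) of genes with a mean of at least 10 was tested with limma 3.58.1 in R 4.3.3 (variance trend, two-sided, Benjamini-Hochberg over all 12993 genes, threshold 0.05). The steps were run on simulated counts to check the size and direction of differences, with no replicate or Rn45s effect simulated. The members and lists were chosen with earlier results of these data known. Named were all members and, of each list, called genes, the largest difference in each direction and the highest mean; genes at 0 in all libraries were named after their values were seen. Positions and exon lengths come from GENCODE on the same build, where Tfap2a and Tfap2c have the older symbols Tcfap2a and Tcfap2c. Exon windows were mapped with minimap2 2.31-r1302. The alternatives were pseudocounts of 0.1 and 5, other filters and scalings, no variance trend, a replicate block and each library left out.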

Additional observations from a re-analysis of the deposited data

How the results depend on the processing

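The number of genes called over all tested genes, 64 as reported, became 46 with the total set equal without Rn45s (35 higher and 11 lower), 46 with upper-quartile scaling (34 and 12), 32 at a pseudocount of 0.1, 34 with every gene above 0 included, 99 at a minimum mean of 50, and 0 without the variance trend (limma, 1135 genes at an unadjusted p under 0.05). With each library left out it was 0 each time, with 428 to 2496 genes at an unadjusted p under 0.05 in limma, in fits that leave 1 residual degree of freedom and assume that the lone library varies like the other group. With the replicate number as a block it was 391 (222 higher and 169 lower), in a fit that likewise leaves 1 residual degree of freedom. The labels do not say that a number marks a shared batch. Over the tested genes, deviations of same-numbered libraries were weakly correlated (Pearson, 0.0851). The Rn45s share, however, had the same order in both groups. It was 46.6% and 21.6% in serum/-LIF replicates 1 and 2, and 38.4% and 9.08% with Royalactin. Whether the numbers mark a shared batch was not tested. In that block fit Tfap2c, at the same log2 difference of 2.03, had an adjusted p of 0.01004 (limma, Benjamini-Hochberg), and over all alternatives it ranged from there to 1.00. No other member changed its side of the threshold. Of the 5 called genes of the lists, Krt8 and Krt18 were lost in both scalings, and with Sox2 also at a pseudocount of 0.1 and with every gene above 0 included, whereas Esrrb and Zfp42 were lost only without the trend or with a library left out. None changed sign.

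With a pseudocount of 0.1 the log2 differences of Gata2, Tfap2a and Esx1 were 4.03, 4.02 and -4.08, against 2.37, 2.34 and -2.42. Cdx2, Elf5 and Plac1 have a group without reads and were given no log2 difference. At the filter of 10 the list medians were -0.08 for differentiated trophoblast genes, -0.10 for family relatives and -0.02 for trophoblast stem cell genes. They were -0.97 for the 2 tested surface ectoderm and neural crest genes, -0.02 for fibroblast markers and 0.06 for mesoderm genes. Over all genes above 0 they became -0.87 for differentiated trophoblast genes and 0.50 for family relatives. With that filter surface ectoderm and neural crest genes had 0.082 and fibroblast markers -1.82. At a minimum mean of 50 the medians were -0.21 for trophoblast stem cell genes and -0.56 for differentiated trophoblast genes. The filters above 0 and at 50 test other members of the lists. With each library left out the medians ranged from -0.21 to 0.017 for trophoblast stem cell genes, -0.57 to 0.22 for differentiated trophoblast genes, -0.88 to -0.43 for trophectoderm epithelium genes, -0.70 to -0.31 for Hippo genes, -0.45 to 0.51 for family relatives, 0.34 to 0.51 for restraining genes, 1.13 to 1.73 for germ cell genes and 0.89 to 1.25 for embryonic stem cell markers. Neither mesoderm genes nor fibroblast markers have a gene that reaches a mean of 50. Depth limits the 8 members under the filter, none of which had more than 16 reads in a library.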
